A study of Drosophila melanogaster with 5 samples.

Results

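The odorant-binding protein (Obp) genes of Drosophila melanogaster were followed across eye-antennal discs and disc tumors. Members were taken as all genes with a current symbol starting with Obp that had a probe set (the group of array probes read as 1 value) naming no other gene. This gave 47 genes, measured by 50 probe sets, of 11981 measured genes. The assembly table of gene names lists 51 such genes, and the other 4 were not analysed here. The gene lush, an odorant-binding protein by its product, carries another name and was not a member.

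Odorant-binding proteins are small secreted carriers of hydrophobic molecules. In adult flies many are made by support cells of the antennal and taste hairs, where they fill the fluid around the dendrites of sensory neurons. Others are found in tissues without smell or taste, such as glia, fat body and the male reproductive glands. The eye-antennal disc is the larval epithelium from which the adult eye, antenna and head capsule form, so it precedes the adult sense organs that use most of the family.

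Total RNA came from third-instar larvae raised at 25°C, with 1 array in each of 5 groups. Sras mutant 1 and Sras mutant 2 were tumors that carried different Sras mutants together with Ras overexpression. The scrib mutant group was tumors with a scrib mutation and Ras overexpression, used by the authors as a positive control. The Ras group was tumors with Ras overexpression alone, and WT control was eye-antennal discs labelled 79E control. All tumor groups therefore shared Ras overexpression, and clones were marked with GFP by MARCM, a recombination method that labels the mutant cells and leaves the rest of the animal unlabelled. The sources used here do not give the alleles, the driver of Ras or the number of animals per array.

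With no replicates there was no test, so every difference is between single arrays and its error is unknown. The nearest guide to the spread is the difference between the arrays of the Sras mutants, with an SD of 0.211 log2 over 11981 genes. Dim genes lower this SD, which was 0.243 over genes reaching the background line set below and 0.280 over the 47 members. Some tissue genes differed far more, with a median of -2.27 over 11 salivary gland glue genes in Sras mutant 1 minus Sras mutant 2. Values are log2 expression after quantile normalization, so 1 unit is 2-fold. Levels of different genes come from different probes, so genes are compared only by their differences between arrays and by whether they reach the background line. A background line was set at 6.36, the 40th percentile of all gene values. The top gene value was 14.81 on each array, so the readings of Obp56d and Obp44a in Ras and WT control lie close to the upper end of the scale. In bulk RNA, fewer cells of a type and less RNA per cell cannot be told apart.

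By this line most of the family read at background. The highest value over the 5 arrays lay under the line for 32 of the 47 members (68.1%), against 34.5% of all measured genes. Another 11 members (23.4%) read at or above the line in both Ras and WT control, against 59.7% of all genes, and 4 were above it in some other set of arrays. The division depends on the line: at the 30th percentile 22 members were expressed in WT control and Ras and 22 lay at background in all arrays. A lower line also places more of all genes in the expressed class, and their share at that line is not given here. By array, 9 members reached the line in Sras mutant 1, 8 in Sras mutant 2, 8 in scrib mutant, 11 in Ras and 13 in WT control. By its definition the line has 40% of all gene values under it over the 5 arrays together, and the share in each array is not given here.

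**Figure D1:**
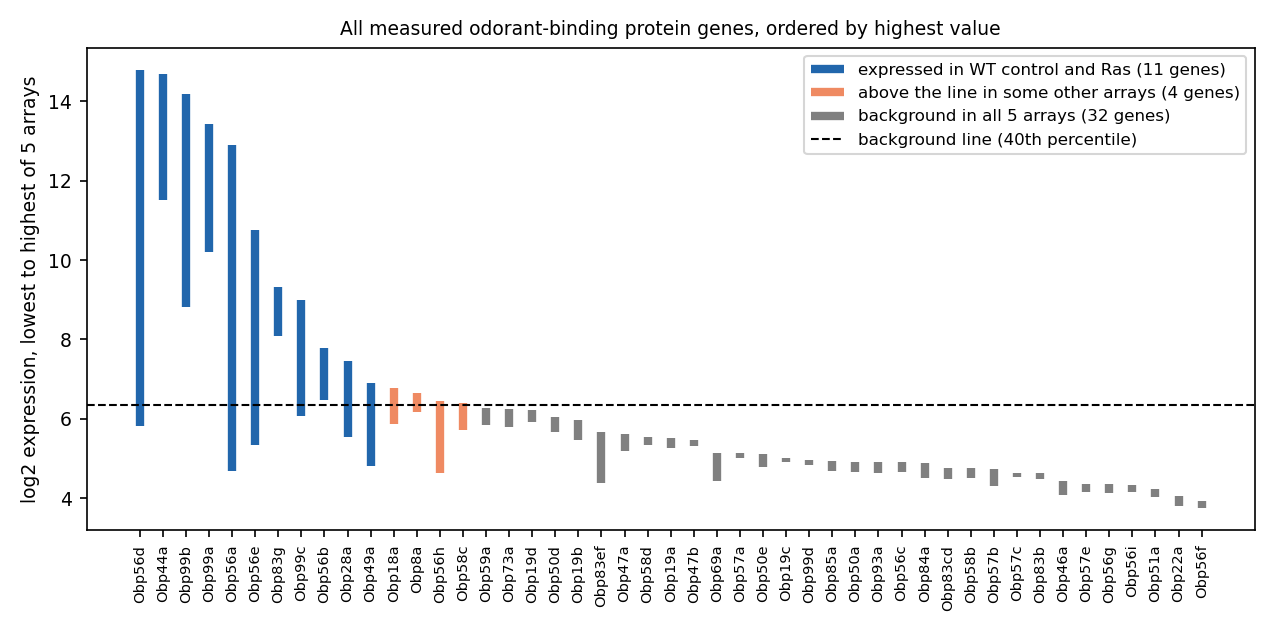
The lowest to highest log2 expression over the 5 arrays for each of the 47 Obp genes, ordered by highest value, with the background line at 6.36 as a dashed line. The 11 genes expressed in WT control and Ras span 1.24 to 8.97 log2 units. Of the 32 genes at background, 30 span under 0.5, but values that all lie under the line leave little room for a wider span.

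The members at background included several carriers known from adult smell and taste. In full, the members at background were Obp19a, Obp19b, Obp19c and Obp19d, Obp22a, Obp46a, Obp47a, Obp47b, Obp50a, Obp50d, Obp50e, Obp51a, Obp56c, Obp56f, Obp56g, Obp56i, Obp57a, Obp57b, Obp57c, Obp57e, Obp58b, Obp58d, Obp59a, Obp69a, Obp73a, Obp83b, Obp83cd, Obp83ef, Obp84a, Obp85a, Obp93a and Obp99d. Their values ran from 3.75 to 6.27, and their range over the arrays had a median of 0.252. Obp83b, a carrier of adult antennal hairs, stayed between 4.49 and 4.63, and Obp59a, linked to humidity sensing in adults, between 5.84 and 6.27. Obp22a, Obp51a, Obp56f, Obp56g and Obp56i, known as seminal fluid proteins of adult males, each read 4.36 or less in every array. They were picked from the members at background, so they do not stand for all seminal fluid members. Obp8a, another of that kind, reached 6.65 and is given below. The largest range among the members at background was 1.29, in Obp83ef. It read 4.38, 4.39 and 4.48 in Sras mutant 1, in Sras mutant 2 and in scrib mutant, 4.82 in Ras and 5.67 in WT control. All of these values are under the line, with WT control alone standing higher.

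Other smell and taste genes were also mostly dim. Of 57 odorant receptor genes, 1 reached the line in any array, and 3 of 53 ionotropic receptor and 3 of 56 gustatory receptor genes did so. Their list medians lay between 4.41 and 4.72 in every array. Or43b, the odorant receptor gene with the highest mean, read 7.09, 7.28 and 7.11 in Sras mutant 1, in Sras mutant 2 and in scrib mutant, 6.46 in Ras and 6.13 in WT control. Ir76a read 9.05 and 9.21 in the Sras mutants and 4.80 in scrib mutant, against 8.96 in Ras and 8.59 in WT control, so it stood at background in scrib mutant alone. Gr61a lay between 6.77 and 7.97 in all 5 arrays. In 19 other carrier and antennal genes, 4 reached the line. Phk-3, a member of the chemosensory protein family, read 11.996, 12.27 and 11.84 in Sras mutant 1, in Sras mutant 2 and in scrib mutant, 12.56 in Ras and 12.97 in WT control. EbpIII of the same family, chosen after its values were seen, read 7.57, 6.91 and 6.34 in the same mutant order, 10.51 in Ras and 10.21 in WT control. It was at least 2-fold lower in all 3 mutant arrays, and Phk-3 was not. The lush gene stayed between 4.53 and 4.80.

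The Obp genes above the line divided by how they read in the tumor arrays. No member lay at least 2-fold apart between Ras and WT control, where 0.918% of all genes were at least 2-fold lower in Ras and 0.484% at least 2-fold higher. Against Ras, 10 of 47 members were at least 2-fold lower in Sras mutant 1 (6.79% of all genes), 11 in Sras mutant 2 (6.89%) and 9 in scrib mutant (9.84%). These counts are 21.3%, 23.4% and 19.1% of the members. None was at least 2-fold higher in any of the 3 arrays, where 2.75%, 3.41% and 6.16% of all genes were, in that order. The medians over all 47 members were -0.10 in Sras mutant 1, -0.04 in Sras mutant 2 and -0.12 in scrib mutant, against 0.05, 0.03 and 0.06 over all genes. The family median therefore stayed near 0 while a minority of members lay far below Ras. When the arrays were instead centred on 19 genes of eye and antennal identity, which shifted the median of all genes to -0.63, -0.70 and 1.05, there were 15, 17 and 7 members lower (15.2%, 18.0% and 5.86% of all genes) and 0, 0 and 15 higher (0.609%, 0.885% and 56.3% of all genes).

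The members counted lower were almost all genes expressed in WT control and Ras. They made up 9 of the 10 in Sras mutant 1 and 10 of the 11 in Sras mutant 2. In scrib mutant they made up 8 of the 9, and the remaining gene in each array was Obp56h. Among all measured genes counted lower, the class likewise held 713 of 813, 728 of 826 and 1031 of 1179, in the same order. A gene under the line in Ras has little room to fall 2-fold, so this share is largely set by how the class was chosen. Because that class was set by high values in Ras, it is described beside the 7147 genes chosen in the same way, of which 9.98%, 10.2% and 14.4% were at least 2-fold lower in these arrays. The arrays share Ras as their baseline. Against WT control in its place, 10, 12 and 11 members were at least 2-fold lower in Sras mutant 1, in Sras mutant 2 and in scrib mutant (7.32%, 7.46% and 10.3% of all genes). None was at least 2-fold higher, against 3.92%, 4.54% and 7.02% of all genes. Obp83ef entered this count in all 3 arrays, through its higher reading in WT control.

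**Figure D2:**
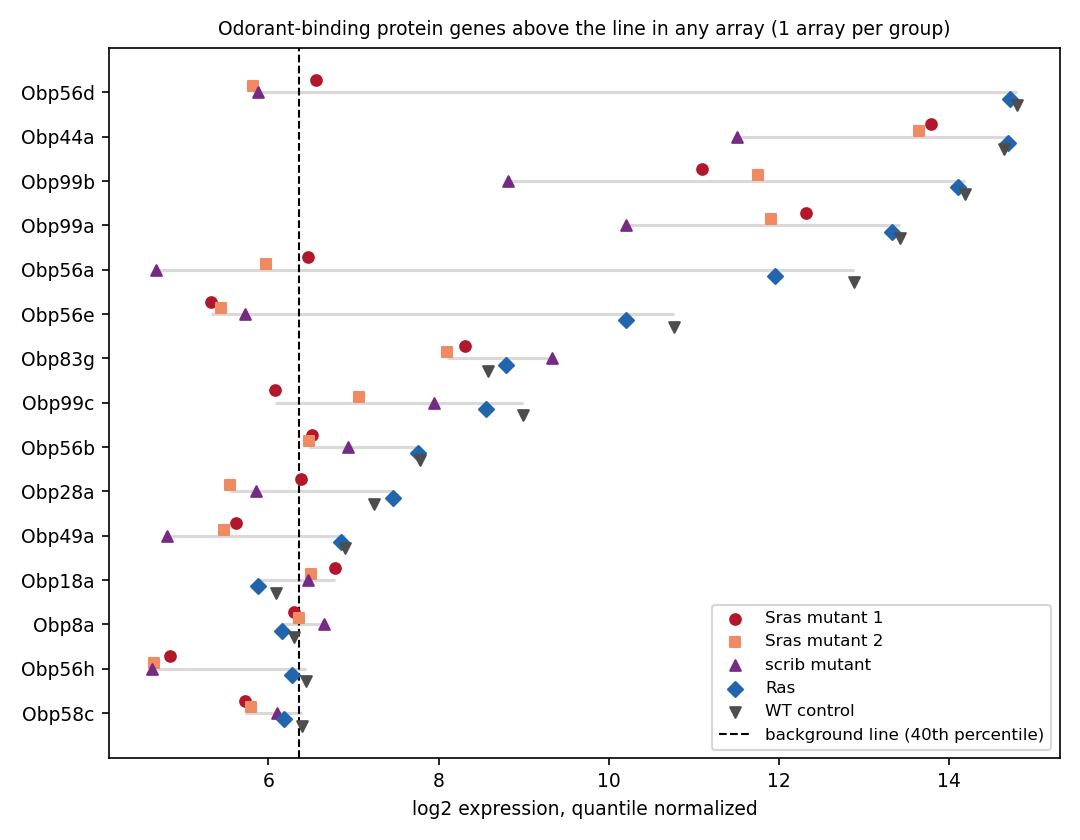
Log2 expression in each of the 5 arrays for the 15 Obp genes above the background line (dashed, 6.36) in any array, with 1 symbol per array. Obp56d, Obp56a and Obp56e sit at 10.20 or more in Ras and WT control and at 6.56 or less in the 3 mutant arrays, while Obp44a, Obp99a and Obp99b stay above the line in all 5.

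Obp56d, Obp56a and Obp56e were at or near background in the mutant arrays only. Obp56d, which is made in smell and taste organs of adults and larvae, read 6.56 in Sras mutant 1, 5.82 in Sras mutant 2 and 5.88 in scrib mutant, against 14.72 in Ras and 14.79 in WT control. Obp56a read 6.46, 5.98 and 4.68 in the same mutant order, against 11.96 in Ras and 12.89 in WT control. Obp56e read 5.33, 5.44 and 5.72, against 10.20 in Ras and 10.77 in WT control. Each gene was far above the line in Ras and WT control and near or under it in every mutant array. The differences from Ras, with the Sras mutants before scrib mutant, were -8.15, -8.89 and -8.84 for Obp56d, -5.49, -5.98 and -7.28 for Obp56a, and -4.87, -4.76 and -4.48 for Obp56e. Values near background can understate a difference, so the order of the 3 mutant arrays for these genes is not informative. Obp56a also had the largest gap of the family between Ras and WT control, at -0.93, just short of 2-fold, and Obp56e lay at -0.56 there. Obp56d, close to the top of the scale, differed by -0.08.

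Obp44a, Obp99a and Obp99b stayed well above the line in every array. Obp44a, a lipid carrier made by glia of the larval brain, read 13.79 in Sras mutant 1, 13.64 in Sras mutant 2 and 11.51 in scrib mutant, against 14.70 in Ras and 14.65 in WT control. Obp99a read 12.32, 11.91 and 10.21 in the same mutant order, against 13.33 in Ras and 13.42 in WT control. Obp99b, also called turn on sex-specificity for its expression in the adult male fat body, read 11.10, 11.75 and 8.82, against 14.10 in Ras and 14.19 in WT control. For all 3 genes scrib mutant was the lowest array, the Sras mutants lay between, and Ras and WT control were highest and within 0.1 of each other. The differences from Ras, with the Sras mutants before scrib mutant, were -0.91, -1.05 and -3.18 for Obp44a, -1.004, -1.42 and -3.12 for Obp99a, and -2.999, -2.35 and -5.28 for Obp99b. Obp44a in Sras mutant 1 fell just outside the 2-fold limit, and Obp99a just inside it.

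The remaining expressed members are given next. Obp99c read 6.08 in Sras mutant 1, 7.06 in Sras mutant 2 and 7.94 in scrib mutant, against 8.56 in Ras and 8.99 in WT control. It was lowest in the Sras mutants, unlike its neighbours Obp99a and Obp99b, and its difference from Ras was -2.48, -1.50 and -0.62 in that order. Obp56b read 6.52, 6.48 and 6.94 in the same mutant order, against 7.76 in Ras and 7.79 in WT control. Obp28a, an abundant carrier of the adult antenna, read 6.38, 5.55 and 5.85, against 7.47 in Ras and 7.24 in WT control. Obp49a, which in adults takes part in the suppression of sweet taste by bitter compounds, read 5.62, 5.47 and 4.81, against 6.85 in Ras and 6.90 in WT control. Obp56b, Obp28a and Obp49a were each lower in all 3 mutant arrays than in Ras and WT control, by more than 2-fold from Ras in every case except Obp56b in scrib mutant (-0.82).

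Obp83g was the expressed member that was not at least 2-fold from Ras in any array. It read 8.31 in Sras mutant 1, 8.09 in Sras mutant 2 and 9.33 in scrib mutant, against 8.79 in Ras and 8.59 in WT control. The Sras mutants lay below Ras by 0.47 and 0.69 (differences of -0.47 and -0.69), whereas scrib mutant lay 0.54 above it.

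The 4 members near the line were read with more caution. Obp18a read 6.78, 6.50 and 6.47 in Sras mutant 1, in Sras mutant 2 and in scrib mutant, 5.88 in Ras and 6.09 in WT control. It crossed the line in all 3 mutant arrays alone, and its difference from Ras, 0.90, 0.62 and 0.59, was in each case above 0 and under 2-fold. Obp8a, a seminal fluid protein of adult males, read 6.30, 6.36 and 6.65 in the same mutant order, 6.16 in Ras and 6.30 in WT control. Obp56h, linked to cuticular hydrocarbons and courtship in adult males, read 4.85, 4.66 and 4.64, against 6.28 in Ras and 6.44 in WT control. It lay more than 2-fold under Ras in each mutant array but reached the line in WT control alone. Obp58c stayed between 5.73 and 6.39.

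**Figure D3:**
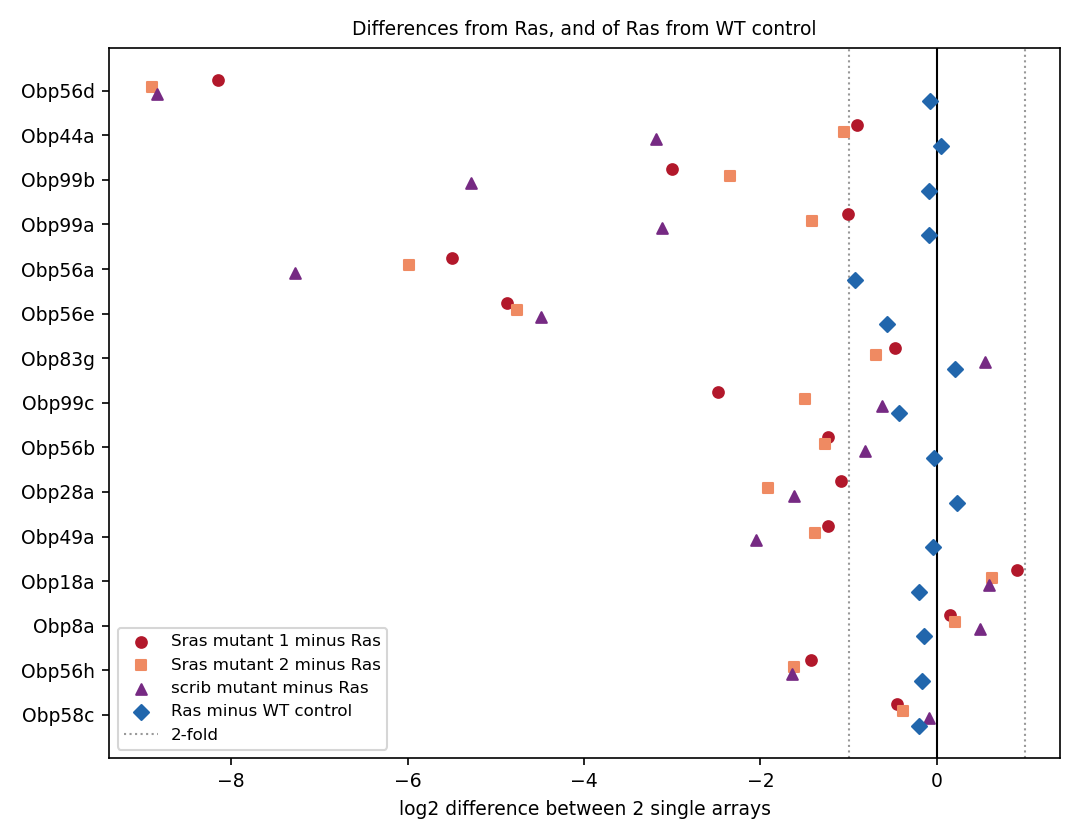
Log2 differences between single arrays for the 15 Obp genes above the line in any array, with each mutant array minus Ras and Ras minus WT control, and dotted lines at 2-fold. Ras minus WT control stays within 2-fold for every gene, and Obp18a at 0.90 in Sras mutant 1 is the highest mutant difference shown.

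Set directly against scrib mutant, the Sras mutants read higher for 4 members and lower for few. Obp44a was higher by 2.28 in Sras mutant 1 and 2.13 in Sras mutant 2, Obp99a by 2.12 and 1.70, Obp99b by 2.28 and 2.93, and Obp56a by 1.79 and 1.30. Obp56a is near or under the line in all 3 arrays. Centring on the eye and antennal identity genes moved the median of all genes to -1.68 and -1.74 in these comparisons, and Obp99a and Obp56a then lay at -0.049 and -0.51 in Sras mutant 2, which is still above that median. With that centring 0 and 1 members were at least 2-fold higher (0.926% of all genes in each) and 41 and 43 lower (90.8% and 91.3%). Without it, 4 of 47 members (8.51%) were higher in each Sras mutant, not far above the 5.43% and 5.48% of all genes. In Sras mutant 1, 2 members (4.26%) were at least 2-fold lower than in scrib mutant (3.3% of all genes), namely Obp99c (-1.87) and Obp83g (-1.02). In Sras mutant 2 the lower member was Obp83g (-1.24), which is 2.13% of the members, with 2.89% of all genes lower. Obp99c differed there by -0.88.

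Between the Sras mutants no member was 2-fold apart, with 0.334% of all genes at least 2-fold lower in Sras mutant 1 and 0.117% at least 2-fold higher. The widest gaps were in Obp99c, at -0.99 in Sras mutant 1 minus Sras mutant 2, Obp28a at 0.84, Obp56d at 0.74 and Obp99b at -0.65. The SD of this difference over the 47 members was 0.280.

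Many Obp genes lie side by side on the chromosomes. By gene order in the Release 6 assembly table, 36 of the 51 listed Obp genes stand in 7 runs, in which successive members have at most 10 other protein-coding genes between them. Members expressed in WT control and Ras were found in 3 of these runs. The Obp56 run on 2R held 4 of them, in 9 measured members, and the Obp99 run on 3R held 3, in 4. The Obp83 run held 1, in 4. No member of the Obp19, Obp50, Obp57 and Obp58 to Obp59 runs belonged to that class.

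Next neighbours within the runs could fall on different sides of the background line. Obp56c stands between Obp56b and Obp56d, with no other protein-coding gene between these neighbours. It read 4.73, 4.71 and 4.65 in Sras mutant 1, in Sras mutant 2 and in scrib mutant, 4.86 in Ras and 4.90 in WT control. It therefore stayed under the line in Ras and WT control, where Obp56b and Obp56d were above it, and Obp56f, next to Obp56e, stayed between 3.75 and 3.94. In the Obp99 run, Obp99d lay between 4.85 and 4.97 in all arrays, although Obp99c and Obp99b on its sides were expressed in WT control and Ras. Of 24 measured genes of other families inside the runs, 3, 3 and 2 were at least 2-fold under Ras in Sras mutant 1, in Sras mutant 2 and in scrib mutant, and 0 were as far above it. All of these were in the Obp57 and Obp83 runs, and they were CG30154 (-1.93, -1.94 and -1.83), CtsL3 (-1.54, -1.14 and -1.35) and, in the Sras mutants, Bbd (-1.42 and -1.36). They were named after their values were seen, and Bbd lay at -0.01 in scrib mutant. These counts stand beside the 6.79%, 6.89% and 9.84% of all genes given above. The 10 measured genes inside the Obp56 and Obp99 runs lay from -0.90 to 0.67. Between Obp99a and Obp99c, Bub3, a spindle checkpoint gene, read 12.51, 12.41 and 12.12 in Sras mutant 1, in Sras mutant 2 and in scrib mutant, 12.24 in Ras and 12.19 in WT control. Toll-7, between Obp56h and Obp56i, lay 0.67, 0.56 and 0.57 above Ras in the mutant arrays.

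**Figure D4:**
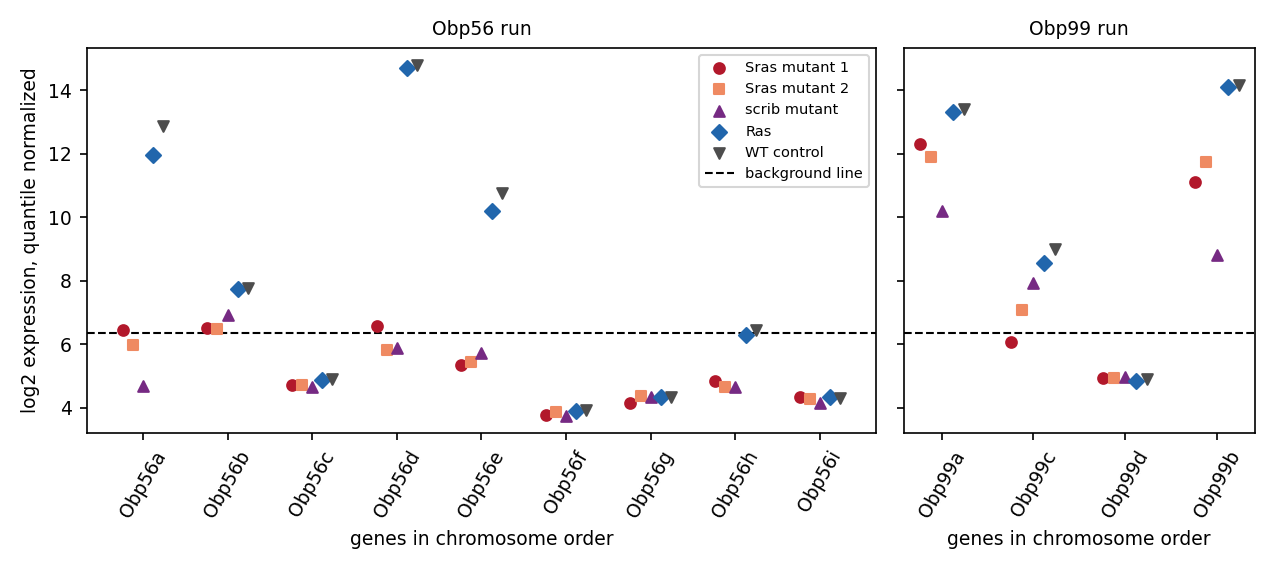
Log2 expression in the 5 arrays for the Obp genes of the Obp56 run (left) and the Obp99 run (right), in chromosome order, with the background line at 6.36. Obp56c and Obp99d stay under the line in every array, while Obp56d and Obp99b are above it in Ras and WT control.

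Markers of other larval tissues moved in the same arrays. Salivary gland glue genes were taken by their symbols, which also brought in Sgsh, a lysosomal gene, and the values here leave it out, a choice made after the data were seen. The other 10 had medians of 6.68 in Sras mutant 1, 8.98 in Sras mutant 2 and 6.26 in scrib mutant, against 13.93 in Ras and 14.55 in WT control, and all 10 were at least 2-fold under Ras in each mutant array. With Sgsh the medians were 6.72, 8.99 and 6.31, against 13.79 in Ras and 14.49 in WT control. Sgsh itself lay at -0.01, 0.16 and 1.10 from Ras. Sgs7, the glue gene of highest mean, read 7.49, 10.75 and 6.02 in that mutant order, against 14.81 in Ras and 14.81 in WT control. After quantile normalization 14.81 is the top gene value of every array, so the equal readings do not compare Ras with WT control. The glue genes under the background line numbered 2, 2 and 6 in the mutant arrays, 0 in Ras and 0 in WT control. The muscle list (11 of 15 named genes measured) had medians of 7.12, 6.64 and 6.99 in that mutant order, against 10.50 in Ras and 10.38 in WT control, again with 10 of 11 genes at least 2-fold under Ras in each. Mlc1, a myosin light chain gene, read 8.41, 7.59 and 7.58, against 12.71 in Ras and 12.45 in WT control. Fat body genes (5 of 9 measured) were at 10.0045, 11.03 and 9.46, against 12.68 in Ras and 13.15 in WT control, with 5, 5 and 4 of the 5 genes at least 2-fold under Ras. Lsp2, a larval serum protein gene and the fat body gene of highest mean, read 11.04, 12.04 and 11.08, against 13.90 in Ras and 14.17 in WT control. The muscle genes under the line numbered 1, 3 and 3 in the mutant arrays, and no fat body gene was under it in any array.

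Glia genes (7 of 8 measured) had medians of 8.94, 8.38 and 7.84 in Sras mutant 1, in Sras mutant 2 and in scrib mutant, against 9.91 in Ras and 9.68 in WT control. In that order 3, 3 and 5 of them were at least 2-fold under Ras, and 0, 0 and 1 at least 2-fold over it. The nuclear glia marker repo read 9.38, 9.07 and 6.78 in the mutant arrays, against 9.91 in Ras and 9.68 in WT control. It was chosen after its values were seen. The glial sodium pump gene nrv2 stayed between 10.38 and 10.98 in all arrays, so the glia genes did not move as one. Neuron genes (8 of 9 measured) were at 6.70, 6.69 and 6.85, against 8.14 in Ras and 7.75 in WT control, with 3, 3 and 4 of 8 at least 2-fold under Ras. Among them fne read 9.13, 8.78 and 7.59, against 11.40 in Ras and 11.46 in WT control. The synaptic gene brp, chosen after its values were seen, lay above Ras by 0.58, 0.70 and 0.45. The part of other tissue in the Obp differences was not tested.

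The remaining lists were mixed. Trachea genes (5 of 6 measured) had medians of 12.08, 12.22 and 12.44 in Sras mutant 1, in Sras mutant 2 and in scrib mutant, against 11.51 in Ras and 11.58 in WT control, and Gasp among them stayed between 12.34 and 12.77. The gene btl, chosen after its values were seen, lay near the background line. It read 6.37, 6.16 and 6.53 in the mutant arrays, 6.36 in Ras and 6.72 in WT control. The other trachea genes lay above Ras in each mutant array. Hemocyte genes (8) lay between 8.63 and 9.84 in median, with PPO2 at 9.95, 8.76 and 9.68 in the mutant arrays, 10.18 in Ras and 12.47 in WT control. Jonah proteases of the gut (13) lay between 5.20 and 5.50 in median, with 9 or 10 of the 13 under the line in each array. The 4 Jonah genes above the line in WT control and Ras were all at least 2-fold under Ras in each mutant array, by differences from -1.47 to -4.89 in Sras mutant 1, from -1.77 to -5.24 in Sras mutant 2 and from -1.12 to -6.18 in scrib mutant. Jon65Aiv among them read 8.36, 8.41 and 5.50, against 11.68 in Ras and 10.72 in WT control. These 4 genes were picked in part by high values in Ras, the baseline. Of the 7147 genes picked in the same way, 9.98%, 10.2% and 14.4% were at least 2-fold lower in these arrays. Over all 13 Jonah genes the median difference from Ras was -0.03, -0.03 and -0.07. Genes of eye and antennal identity (19 of 21 measured) were at 9.55, 9.61 and 8.09, against 8.90 in Ras and 8.70 in WT control, with medians above the line in all arrays and toy between 10.41 and 11.60. Gene by gene, their median difference from Ras was 0.67, 0.61 and 0.29, with 0, 0 and 6 at least 2-fold lower and 8, 8 and 6 at least 2-fold higher. In scrib mutant the list median was thus under that of Ras, although the median of the gene differences was above 0. Cuticle protein genes, another large family of secreted proteins (102 measured), had 23, 26 and 26 members at least 2-fold under Ras and 4 above it in each array. Cpr51A, the gene of highest mean, read 11.58, 11.14 and 11.65, against 12.17 in Ras and 12.15 in WT control, and at -1.03 from Ras it was one of the 26 in Sras mutant 2. Their medians over all members differed from Ras by -0.03, -0.03 and -0.01, so in that family too a minority of genes lay far below Ras.

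**Figure D5:**
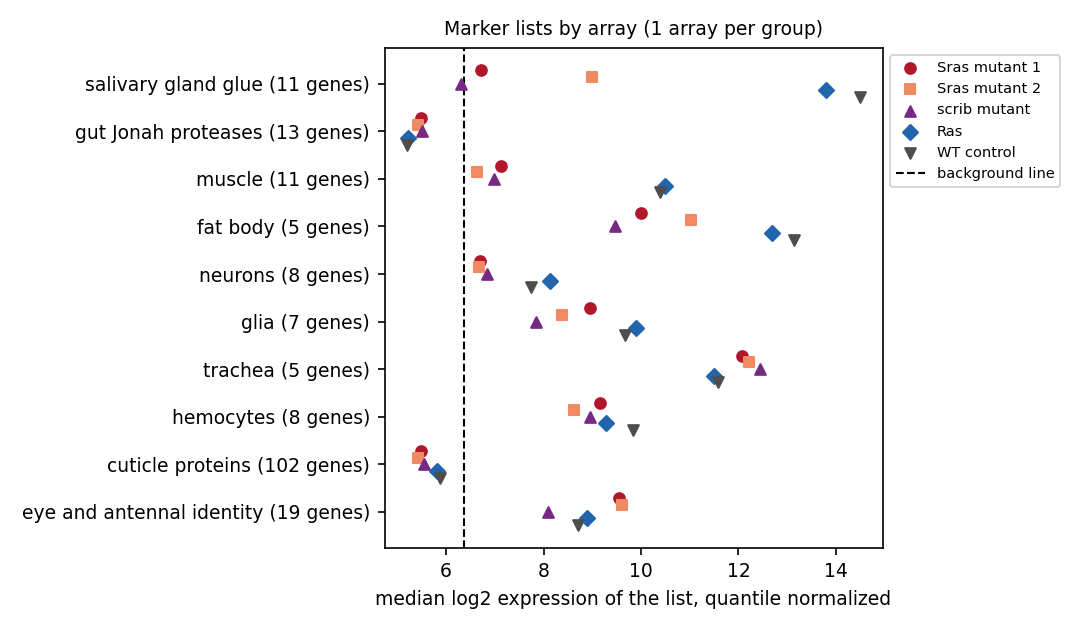
Median log2 expression of each marker list in the 5 arrays, with the number of measured genes in parentheses and the background line at 6.36. The 11 glue genes include Sgsh. Glue, muscle, fat body, neuron and glia medians are lower in the 3 mutant arrays than in Ras and WT control, and trachea medians are higher.

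The Ras array was unlike the others in one technical measure. For 3 housekeeping transcripts, the control probe set at the 3′ end read above that at the 5′ end by 0.930 on average in Sras mutant 1, 0.912 in Sras mutant 2, 0.882 in scrib mutant, 1.35 in Ras and 0.954 in WT control. How far this carries over to the Obp genes was not tested. With WT control as the baseline, the differences of Obp56d were -8.23, -8.97 and -8.92 and those of Obp44a -0.86, -1.004 and -3.13 in Sras mutant 1, in Sras mutant 2 and in scrib mutant. Obp56d, Obp56a, Obp56e, Obp99a, Obp99b, Obp49a and Obp56h were at least 2-fold lower in all 3 mutant arrays from either baseline. These comparisons share the same mutant arrays, so they are not independent. The share of all genes that met the same condition is not given here.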

How the data were processed

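The authors deposited 1 table of log2 values, 18952 probe sets on 5 arrays. The sources used here do not say how the background was corrected or the probes were normalized and summarised. That these are log2 values follows from their span of 3.32 to 14.9 on the deposited scale. Array medians differed by 0.153, over the limit of 0.1, so the arrays were quantile normalized. This hides any shift of most genes. The number of arrays, 1 per group, limits the precision, and no test, error or p-value was computed. Of the probe sets, 13646 named 1 gene and 402 several. Symbols were updated through gene identifiers with the Release 6 table, which held all 47 members. The probe set with the highest mean stood for a gene. For the 3 members with more than 1 (Obp19a, Obp19c and Obp59a), all probe sets read under the background line. Counts took every measured gene at 2-fold, with no filter on dim genes. Members reaching the line were named with their values in each array, as was the gene of highest mean in each list. The members and lists were chosen with earlier results of these data known. Protein sequences were not analysed here. Alternatives were array median centring, the deposited values, centring on identity genes of the eye and antenna, a filter at the 40th percentile, the mean of probe sets, thresholds of 1.5-fold and 3-fold, and a background line at the 30th or 50th percentile. The counting was tested on simulated data, and the outcome is not given here. Python 3.11.15, NumPy 2.4.6, pandas 2.3.3 and matplotlib 3.10.9 were used.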

Additional observations from a re-analysis of the deposited data

Results flagged for a closer look

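Obp83g lay on opposite sides of Ras in the Sras and scrib tumors: scrib mutant was higher by 0.54, while Sras mutant 1 and Sras mutant 2 differed by -0.47 and -0.69. From WT control the differences were 0.75 in scrib mutant and -0.27 and -0.49 in the Sras mutants. With 1 array per group this difference was not tested.

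A probe set that names a cuticle gene as well as an Obp gene, and so was left out of the comparisons, read 7.47 in Sras mutant 1, 7.44 in Sras mutant 2, 7.98 in scrib mutant, 10.65 in Ras and 10.35 in WT control. Its value in Ras exceeded that in WT control by 0.30. Of the 4 probe sets that name an Obp gene with another gene, the other 3 read under the background line in all arrays.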

How the results depend on the processing

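No paired analysis was possible because each group has 1 array, and the lack of replicates is the main limit. A filter on dim genes and the mean of probe sets left each count by comparison within 1.5 times of its reported value. These settings had little room to change the counts. Every member counted against Ras reaches the line in some array, and the 3 members with several probe sets read under it. With array median centring or the deposited values, 1 member was at least 2-fold lower in Sras mutant 1 than in Sras mutant 2, against 0 reported, and with the deposited values 1 was lower in Sras mutant 1 than in scrib mutant, against 2. These changes came from Obp99c and Obp83g, which lie near 2-fold.

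At 3-fold, members lower than Ras numbered 5 in Sras mutant 1, 6 in Sras mutant 2 and 9 in scrib mutant (3.71%, 4.05% and 6.83% of all genes). Members lower than WT control numbered 6, 7 and 8 in that order (4.33%, 4.58% and 7.10%). Those lower than scrib mutant numbered 1 in Sras mutant 1 and 0 in Sras mutant 2 (1.39% and 1.15%). At 1.5-fold, 1 member was higher than Ras and 1 higher than WT control in each mutant array, where 9.26% to 16.8% of all genes were. Then 2 members were lower in Ras than in WT control (3% of all genes), 7 higher in Sras mutant 1 than in scrib mutant (9.09%), 2 lower in Sras mutant 2 than in scrib mutant (7.91%), and 2 lower and 2 higher in Sras mutant 1 than in Sras mutant 2 (1.30% and 0.609%).

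Centring on the eye and antennal identity genes shifted all genes, since the median level of those 19 genes lay 0.71 and 0.75 above Ras in the Sras mutants and at -0.97 from it in scrib mutant, although their gene-wise median in scrib mutant was 0.29. The counts below are read against that shift. Members lower than Ras numbered 17 in Sras mutant 2 (18.0% of all genes), and 15 were higher in scrib mutant (56.3%). Between Ras and WT control 2 were lower (1.68%). From WT control, 29 were lower in Sras mutant 1 (29.5%), 31 lower in Sras mutant 2 (42.3%) and 4 higher in scrib mutant (30.5%). From scrib mutant, 41 were lower and 0 higher in Sras mutant 1 (90.8% and 0.926%), and 43 lower and 1 higher in Sras mutant 2 (91.3% and 0.926%). The sign turned in Sras mutant 2 minus scrib mutant for Obp99a (-0.049), Obp56a (-0.51), Obp49a (-1.14), Obp18a (-1.48) and Obp56h (-1.78), in Sras mutant 1 minus scrib mutant for Obp28a (-1.12), Obp18a (-1.18) and Obp56h (-1.54), and in Sras mutant 2 minus WT control for Obp8a (-1.06).

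With the background line at the 30th percentile, 22 members counted as expressed in WT control and Ras and 22 as at background. With the line at the 50th percentile, 0 stood above it in some other set of arrays. The shares of all genes at these lines are not given here, so these counts do not compare the family with all genes.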
